A study of Mus musculus with 2 samples.

Results

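The tripartite motif (TRIM) genes encode a family of proteins that mostly carry an N-terminal RING finger, B-box and coiled coil, and most act as ubiquitin ligases. All genes whose symbol starts with Trim followed by a digit were taken, which gave 64 TRIM genes with a value among 22180 named genes. Their mRNA levels were measured on 2 Affymetrix arrays of RAW264.7 cells, an established mouse macrophage line. The first array came from wildtype cells and the second from cells labelled HuR-deficient, and both cultures had been transfected with poly(I:C) of high molecular weight, a stand-in for viral double-stranded RNA, by means of lipofectamine 2000 for 8 hours at a stated 1 mg/ml. How HuR was disrupted, and whether the line is a clone, is not stated in the labels. HuR, the product of Elavl1, binds AU- and U-rich stretches of mRNAs.

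Each group had 1 array, so no test between the conditions was possible, and every value below is that of a single array. Levels are log2 signals and every difference is on that scale too, with the wildtype signal subtracted from that of the array labelled HuR-deficient. Cells without poly(I:C) were not analysed here, so how stimulation itself acts on these genes cannot be read from the values. The targeted gene did not separate the arrays: Elavl1 gave 7.68 in wildtype and 7.75 on the array labelled HuR-deficient. The arrays had medians of 4.08 and 4.10 and a Pearson r of 0.970 over 41345 probe sets. All 8 macrophage markers examined, among them Cd68, Csf1r and Spi1, passed a floor of 4.38, the median of all named values, on at least 1 array. One of them, Adgre1, the F4/80 gene, went from 4.94 in wildtype to 6.51 on the other array, a difference of 1.57 that exceeded every TRIM difference, while the other markers stayed within 1.5-fold; its part in the TRIM values was not tested. Of 19 measured markers of T and NK cells, B cells, fibroblasts, epithelium, muscle and neurons, 7 passed the floor. Of all named genes, 53.7% passed it. Passing that floor does not show that a gene was expressed.

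In a macrophage, viral RNA in the cytosol is sensed by RIG-I-like receptors, which lead to interferon production, and interferon in turn switches on antiviral genes. Several TRIM proteins belong to both steps. Some ubiquitinate sensors and adaptors of this pathway, and the genes of many of them are themselves induced by interferon. Some others have roles outside immunity, as chromatin co-repressors, RNA-binding repressors or proteins of the cytoskeleton and of muscle. The members were therefore divided into 15 measured interferon-linked genes, named from general knowledge, and 49 others. These lists were chosen with earlier results of these data known, so the contrast between them is a description and not a test.

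The interferon-linked TRIM genes held most of the larger differences in the family, in both directions. Among all measured members, 6 of 15 interferon-linked genes lay at least 1.5-fold apart (0.58 on the log2 scale), 5 of them higher and 1 lower on the array labelled HuR-deficient. Of the 49 others, 4 did so, 1 higher and 3 lower. The background was 11.0% of all 22180 named genes, 5.61% higher and 5.36% lower. The median size of the difference, regardless of sign, was 0.54 for the interferon-linked genes, 0.22 for the other TRIM genes and 0.22 for all named genes. The signed medians lay closer together, at 0.14 for the interferon-linked genes, 0.03 for the others and 0 for all named genes, with 8 interferon-linked genes above 0 and 7 below. Without the Trim6, Trim12, Trim30 and Trim34 copies, the interferon-linked median was 0.06 over 6 genes, 2 of which were past 1.5-fold.

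Of the 64 members, 35 passed the signal floor on at least 1 array, or 54.7%, against 53.7% of all named genes. Of the 35, 11 were interferon-linked and 24 others. None of the 35 reached 2-fold in either direction, against 1.99% of the 11905 genes that passed, 0.882% higher and 1.11% lower. At 1.5-fold there were 4 higher members, Trim26, Trim30d, Trim21 and Trim30c, all interferon-linked, against a background of 5.44%. The 2 lower members were the interferon-linked Trim30a and, among the others, Trim68, against a background of 5.32%. Trim38, Trim46 and Trim58 passed the floor on 1 array only.

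**Figure D1:**
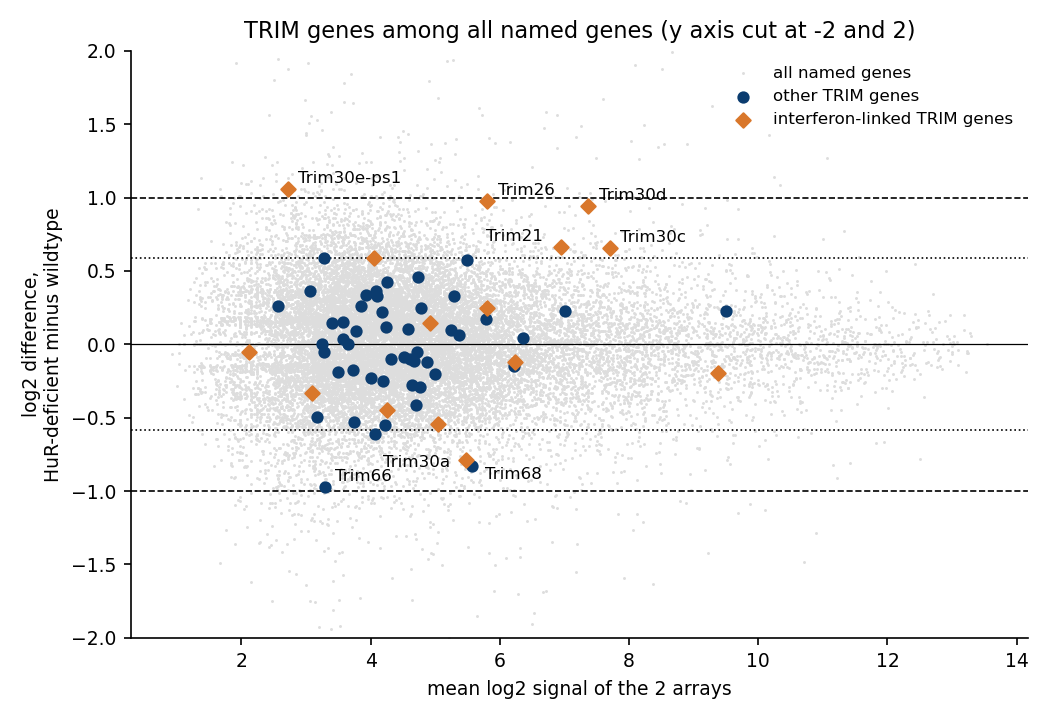
Log2 difference (HuR-deficient minus wildtype) against the mean log2 signal of the 2 arrays for all named genes (grey), interferon-linked TRIM genes (diamonds) and other TRIM genes (circles); dashed lines mark 2-fold and dotted lines 1.5-fold, and genes beyond 2 or below -2 are not drawn. Trim26, Trim30d, Trim21 and Trim30c lie above the upper dotted line, Trim30a and Trim68 below the lower one, and Trim30e-ps1 and Trim66 are weak signals.

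The promoters of the interferon-linked members were read for the letters to which interferon-activated factors are known to bind. RefSeq promoter windows of 300 bases, from 250 bases before a transcript start to 50 after it (GRCm38.p6), were matched by symbol for 49 of the 64 members, 13 of them interferon-linked. The core of the interferon-stimulated response element was searched on both strands as GAAA, any 2 bases and GAAA again (TTTC, any 2 bases and TTTC on the reverse strand), and matches could overlap. Of the 13 interferon-linked genes, 7 held it in a window, which is 53.8%. Of the 36 other TRIM genes, 1 did, Trim2, or 2.78%, and 1079 of all 27025 genes with a window did, or 3.99%. Trim12a, Trim12c, Trim30a, Trim30d and Trim34a are related neighbours, so their matches are not independent of one another. The stretches around the matches follow, each written 5′ to 3′ in the direction of the gene, with the matching letters in capitals; they are shown because they are what 7 of the 15 interferon-linked members have in common.
Trim21, chr7:102565435-102565494, minus strand: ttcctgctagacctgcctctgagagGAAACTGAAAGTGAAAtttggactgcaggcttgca
Trim26, chr17:36836961-36837020, plus strand: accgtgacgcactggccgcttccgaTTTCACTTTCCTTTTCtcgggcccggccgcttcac
Trim34a, chr7:104244442-104244501, plus strand: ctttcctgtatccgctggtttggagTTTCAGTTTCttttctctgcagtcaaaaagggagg
Trim12a, chr7:104315451-104315510, minus strand: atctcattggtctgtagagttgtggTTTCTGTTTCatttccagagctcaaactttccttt
Trim12c, chr7:104353344-104353403, minus strand: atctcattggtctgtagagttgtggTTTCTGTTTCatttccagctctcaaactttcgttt
Trim30a, chr7:104465195-104465254, minus strand: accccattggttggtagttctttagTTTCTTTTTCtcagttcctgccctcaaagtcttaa
Trim30d, chr7:104507856-104507915, minus strand: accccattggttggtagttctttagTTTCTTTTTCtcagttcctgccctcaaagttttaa

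The capitals of Trim21 and Trim26 hold 2 overlapping matches each. In Trim21 they began 13 bases after the transcript start, in Trim34a and Trim12a 10 bases after it, and in Trim26, Trim30d, Trim12c and the first window of Trim30a before it. A match is a description of letters and was not tested as a binding site. Trim25, Trim30b, Trim30c, Trim38, Trim56 and Trim6 had a window without a match. Of the 7 genes with a match, 4 differed upwards and 3 downwards, with a median of 0.58 and a range from -0.79 to 0.98. The 6 genes with a window and no match had a median of -0.23 and ranged from -0.54 to 0.66, so the ranges overlapped. Of each list, 5 genes passed the floor, and both medians rest on a gene that did not. The 0.58 is the value of Trim34a, which was below the floor on both arrays and whose second probe set did not differ. The -0.23 lies midway between Trim25 and Trim6, and Trim6 was below the floor on both arrays.

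**Figure D2:**
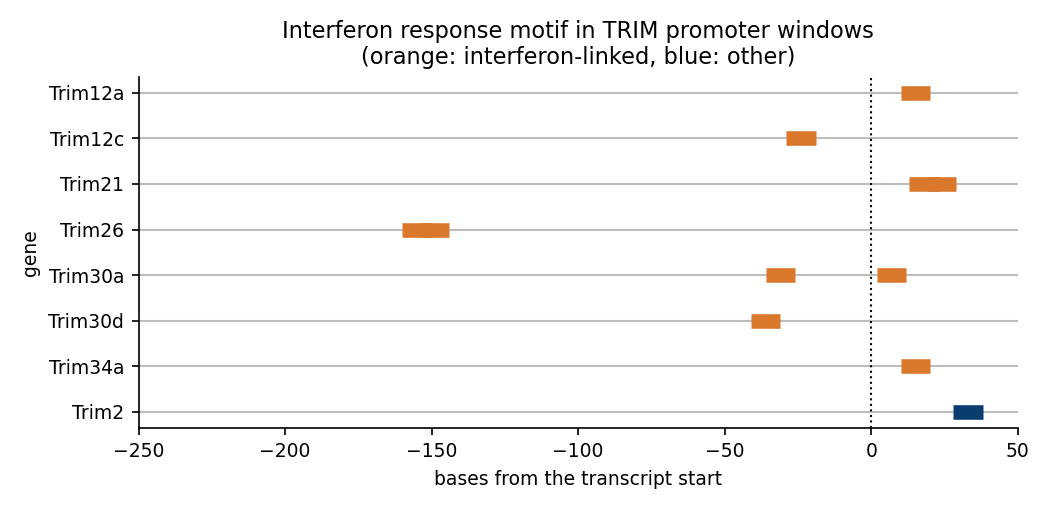
Position of each match to the response element core, either strand, in the promoter windows of TRIM genes, in bases from the transcript start (dotted line); the grey line is the window, and both windows of Trim30a share a line. The 7 interferon-linked genes are orange, and Trim2, the other TRIM gene with a match, is blue.

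Among the interferon-linked genes outside the Trim6, Trim12, Trim30 and Trim34 copies, Trim26 differed most. Trim26, a ubiquitin ligase that has been linked to interferon regulatory factor signalling, gave 5.32 in wildtype and 6.29 in cells labelled HuR-deficient, a difference of 0.98 or 1.97-fold. Of the genes that passed the floor, 0.983% were at least as high. The robust SD of the 500 genes nearest in mean signal was 0.32, which is a spread between genes and not between replicates. Trim21, the cytosolic antibody receptor, gave 6.62 in wildtype and 7.28 on the other array, a difference of 0.66, and 3.81% of the genes that passed were at least as high. Both were therefore higher on the array labelled HuR-deficient. Both carried overlapping matches in the promoter windows above, but Trim30a, Trim12a and Trim12c held a match and were lower. Trim30c was higher and had a window without one. A link between match and difference was not tested.

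The other 4 interferon-linked genes outside the Trim6, Trim12, Trim30 and Trim34 copies were not all higher on the array labelled HuR-deficient. Trim25, the ubiquitin ligase known for activating RIG-I, had 6.30 in wildtype and 6.18 in cells labelled HuR-deficient, a difference of -0.12. Trim14, an adaptor at mitochondrial MAVS, had 5.67 and 5.92, a difference of 0.25. Trim56, a ligase of the cytosolic DNA-sensing pathway, had 5.32 and 4.78, a difference of -0.54, just short of 1.5-fold. Trim38, which restrains inflammatory signalling, had 4.47 in wildtype and 4.02 on the other array, below the floor, a difference of -0.45. None of these 4 genes reached 1.5-fold, and 3 of them lay on the lower side.

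**Figure D3:**
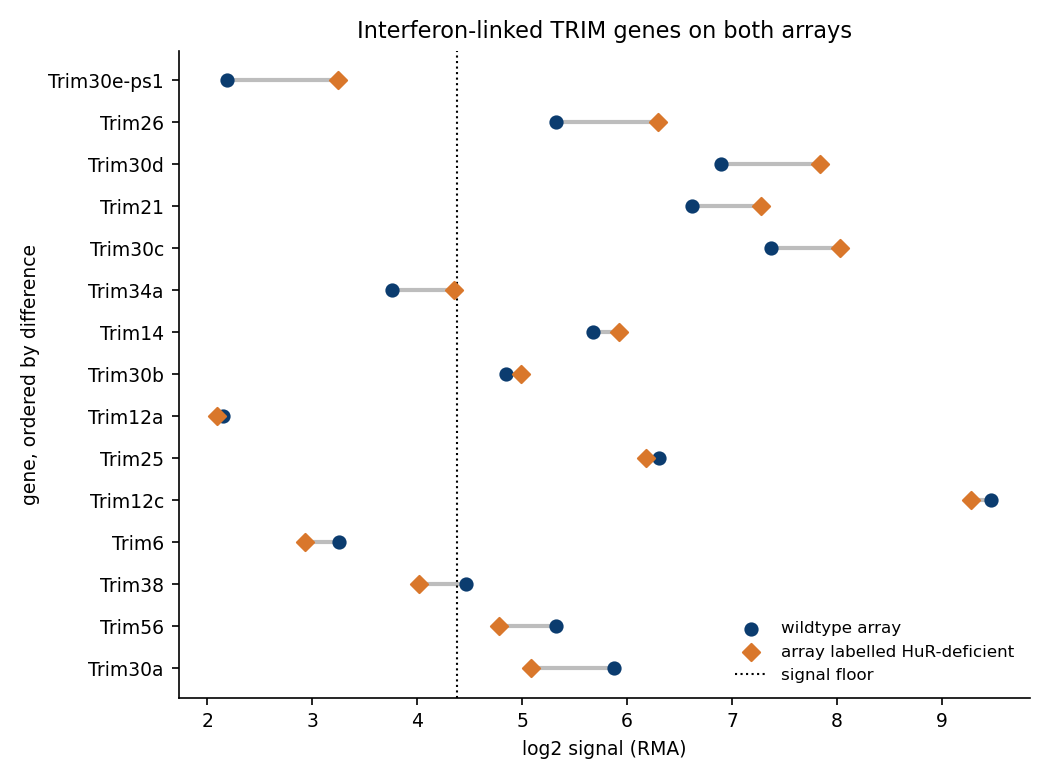
Log2 signal of the 15 measured interferon-linked TRIM genes on the wildtype array (circles) and the array labelled HuR-deficient (diamonds), ordered by difference, with the signal floor of 4.38 dotted; each point is 1 array. Trim30e-ps1, Trim26 and Trim30d have the widest gaps to the right, and Trim30a the widest to the left; signals of different genes are not to be compared with each other.

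The Trim30 genes are mouse copies of one ancestral gene and lay in one stretch of neighbouring TRIM genes, and they divided. Trim30d gave 6.90 in wildtype and 7.84 in cells labelled HuR-deficient, a difference of 0.94 or 1.92-fold. Trim30c gave 7.37 and 8.03, a difference of 0.66. Trim30a, which is known to dampen Toll-like receptor signalling, went the other way, with 5.88 in wildtype and 5.09 in cells labelled HuR-deficient, a difference of -0.79, or 1.73-fold lower. Of the genes that passed, 1.08% were at least as high as Trim30d and 2.31% at least as low as Trim30a.

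Trim30b gave 4.85 and 4.99, a difference of 0.14. The pseudogene Trim30e-ps1 gave 2.19 and 3.25, a difference of 1.06, the single TRIM difference past 2-fold when no floor was applied, against 1.88% of all named genes. Both of its signals lay below the floor. The order along the chromosome was Trim30b, Trim30c, Trim30a, Trim30d and Trim30e-ps1, so the lower member stood between higher ones. No other protein-coding gene or transcribed pseudogene lay between them in the RefSeq table, and other kinds of gene were not counted. Probes that read more than 1 copy were not tested for, so how far each signal belongs to its named copy is uncertain.

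The promoter windows of Trim30a and Trim30d are printed whole, since these neighbours had opposite differences. They aligned with 90.8% identity, 277 identical bases over an alignment of 305. The stretches of 60 bases around their matches, given above, differed at 1 base. Matching letters are again in capitals.
Trim30a whole window, chr7:104465144-104465443, minus strand: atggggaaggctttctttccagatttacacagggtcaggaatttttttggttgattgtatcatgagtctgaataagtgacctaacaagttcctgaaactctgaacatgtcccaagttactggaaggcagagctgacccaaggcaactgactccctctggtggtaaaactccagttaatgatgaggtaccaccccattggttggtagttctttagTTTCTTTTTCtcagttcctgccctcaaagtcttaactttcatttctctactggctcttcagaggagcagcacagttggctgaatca
Trim30d whole window, chr7:104507800-104508099, minus strand: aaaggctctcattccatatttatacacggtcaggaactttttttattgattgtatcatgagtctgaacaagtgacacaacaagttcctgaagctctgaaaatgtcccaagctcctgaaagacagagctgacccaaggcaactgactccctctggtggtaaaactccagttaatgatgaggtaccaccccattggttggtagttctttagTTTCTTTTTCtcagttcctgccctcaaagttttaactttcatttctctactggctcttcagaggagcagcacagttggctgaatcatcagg
A second Trim30a window, from a transcript start further along the gene, aligned with 65.8% identity to the Trim30d window and also held a match. The stretch around that match differed from the Trim30d stretch at 15 of 60 bases. The near identity thus holds for the first Trim30a window only, and which start the Trim30a signal came from was not examined. A link between these letters and the opposite differences was not tested.

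In the same stretch, the TRIM5-related genes were read by few probe sets of a single symbol. Trim12c, which has been described as acting with TRAF6, gave 9.47 in wildtype and 9.27 in cells labelled HuR-deficient, a difference of -0.19. Trim12a gave 2.15 and 2.10, both below the floor. The stretches around the matches of Trim12a and Trim12c differed at 3 of 60 bases. Trim34a gave 3.76 and 4.35, a difference of 0.58, just under 1.5-fold, with both values below the floor, while its second probe set held 2.75 on both arrays. Trim6, which makes ubiquitin chains that act on the kinase encoded by Ikbke, gave 3.26 and 2.93, also below the floor, a difference of -0.33. Trim5 and Trim34b had no probe set with a single symbol. By probe sets with a single symbol, Trim12c was thus the one TRIM5-related gene outside the Trim30 copies that passed the floor. Probe sets that the platform table shares between copies of this stretch also passed it. The one shared by Trim34a and Trim34b gave 5.36 and 6.11, a difference of 0.75, and the stronger of those shared by Trim12c and Trim5 gave 11.38 and 11.49, so a low single-symbol signal does not show that these genes were weak.

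**Figure D4:**
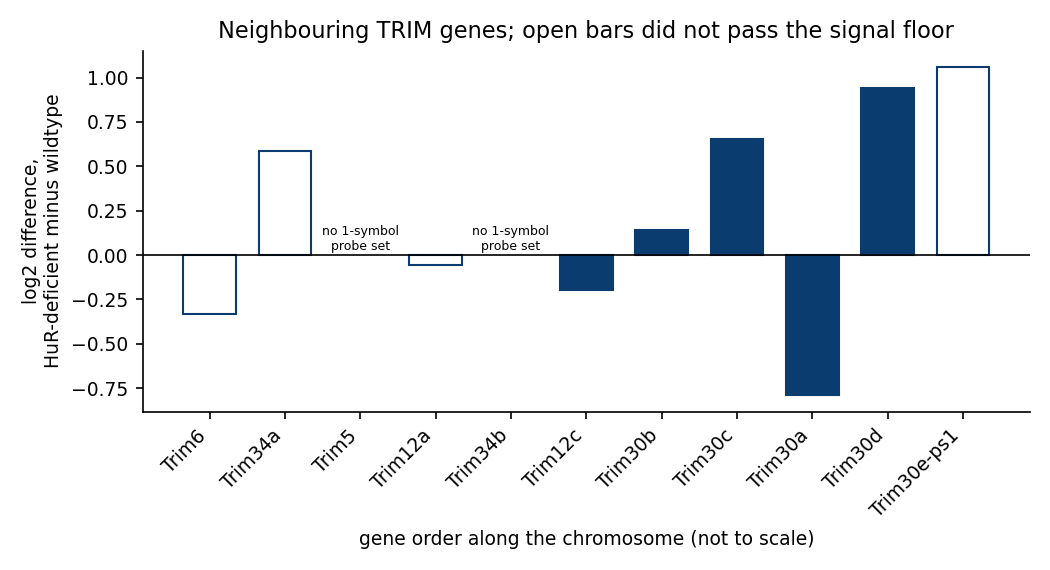
Log2 difference (HuR-deficient minus wildtype) of the 9 measured TRIM genes of a stretch of 11 in RefSeq gene order, 1 bar per measured gene, not to scale; Trim5 and Trim34b had no 1-symbol probe set and have no bar, and open bars did not pass the signal floor. Trim30a points down at -0.79 between Trim30c at 0.66 and Trim30d at 0.94.

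Some other TRIM neighbours also had unlike differences, and some did not. Trim17 and Trim11 differed by 0.34 and 0.06, and Trim43a, Trim43c and Trim43b by 0.09, 0.33 and 0. Of these, only Trim11 and Trim43c passed the floor. Trim21 and Trim68 have 7 genes between them in gene order. Trim21 was higher while Trim68, a ubiquitin ligase of the androgen receptor, was lower. Trim68 gave 5.99 in wildtype and 5.16 in cells labelled HuR-deficient, a difference of -0.83 or 1.78-fold lower, and 2.02% of the genes that passed were at least as low. Trim26 is followed by Trim15, Trim10, Trim40 and Trim31, with no other protein-coding gene or transcribed pseudogene between them. None of these followers passed the floor, and they differed by -0.06, 0.12, 0.26 and -0.53. Trim39, a ligase of apoptosis and cell cycle proteins, lies before Trim26 with 9 genes between them and differed by -0.12.

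Among the 49 other members, Trim68 was the one past 1.5-fold that passed the floor; after a further quantile normalisation Trim35 joined it, at 0.59, and with a loess trend on signal removed Trim46 did, at -0.59. Their 25 positive, 22 negative and 2 zero differences ranged from -0.97 to 0.59. Of all named genes, 49.2% had a positive difference. Trim43b and Trim69 held the same value on both arrays.

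The TIF1 genes encode chromatin co-repressors with a PHD finger and a bromodomain. Trim28, or KAP1, which silences retroelements through KRAB zinc finger proteins, gave 6.90 in wildtype and 7.12 in cells labelled HuR-deficient, a difference of 0.22, and Trim24 differed by 0.11. Trim33, a partner of SMAD proteins, did not pass the floor and differed by -0.10. Trim66 did not pass either. Its signals of 3.78 and 2.80 gave the most negative difference of all members, -0.97, and it is named here after its value was seen. The 2 TIF1 genes that passed the floor thus stayed within 1.5-fold.

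The NHL-repeat genes, some of which encode RNA-binding repressors, had 2 members that passed. Trim71, or LIN41, a repressor of mRNAs in stem cells, gave 4.66 in wildtype and 4.91 in cells labelled HuR-deficient, a difference of 0.24. Trim3 gave 4.77 and 4.49, a difference of -0.28. Trim2 and Trim32 did not pass. The list divided evenly between higher and lower differences.

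The COS-box genes bind microtubules or belong to the muscle sarcomere. All 4 that passed the floor had lower signals on the array labelled HuR-deficient, each within 1.5-fold as deposited. Trim46 passed through its wildtype signal alone, so its direction was not independent of the filter. Of the 3 that did not pass, 2 were higher and 1 lower. Trim46, which organises axonal microtubules, gave 4.50 in wildtype and 3.95 on the array labelled HuR-deficient, below the floor, a difference of -0.55. Trim54, a muscle ring finger gene, gave 4.91 and 4.50, a difference of -0.41, and its second probe set differed by -0.17. The neuronal gene Trim9 gave 4.90 and 4.62, a difference of -0.29, and Trim63, the muscle atrophy ligase MuRF1, differed by -0.09. Over all 7 measured members the median was -0.18, with 5 below 0 and 2 above. Of the muscle and neuron markers, 1 of 4 and 1 of 3 passed the floor. Ckm differed by -0.28 and Syt1 by -0.24, and the part of such cells or of low signal in these values was not tested. Trim55, with signals of 2.99 and 3.58, both below the floor, differed by 0.59 and is named after its value was seen.

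Members with other C-terminal domains differed little. Trim37, a MATH-domain ligase with roles in peroxisomes and centrosomes, differed by 0.04, the membrane-anchored Trim59 by -0.15 and Trim45, with a filamin repeat, by -0.06. Of the genes without a C-terminal domain, Trim44 differed by 0.18 and Trim8, a regulator of cytokine signalling, by -0.12. All of these passed the floor, and their differences lay below the robust SD of genes of like signal, which was between 0.31 and 0.34.

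The remaining 25 members mostly carry a B30.2 domain, which binds other proteins. They had a median of 0.10, with 15 above 0, 8 below and 2 at 0. The largest difference in this list was the -0.83 of Trim68, described above. Trim35, a pro-apoptotic gene first described in macrophages, gave 5.21 in wildtype and 5.79 in cells labelled HuR-deficient, a difference of 0.57, just inside 1.5-fold. Trim41, a ligase of protein kinase C, gave 4.50 and 4.96, a difference of 0.46. Trim58, known from red cell maturation, gave 4.04, below the floor, and 4.47, a difference of 0.42. Trim43c gave 5.13 and 5.46, a difference of 0.33. Trim35, Trim41, Trim58 and Trim43c were thus higher on the array labelled HuR-deficient, by less than 1.5-fold each. Trim58 passed through its signal on that array alone, so its direction was not independent of the filter.

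Smaller differences in that list were those of Trim27 (0.23), a ligase of endosome traffic also called RFP, Trim16 (0.10), which takes part in the clearing of damaged membranes, Trim11 (0.06), Trim50 (-0.10) and Trim47 (-0.20). Trim27 had 2 probe sets, with signals of 9.38 and 9.61 for the one used and 6.56 on both arrays for the other, which differed by -0.0075. Trim72, which repairs muscle membranes, had signals of 4.36 in wildtype, just below the floor, and 3.76 in cells labelled HuR-deficient. Its difference was -0.61, and it is named after its value was seen. The size of the Trim27 difference therefore depended on the probe set.

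**Figure D5:**
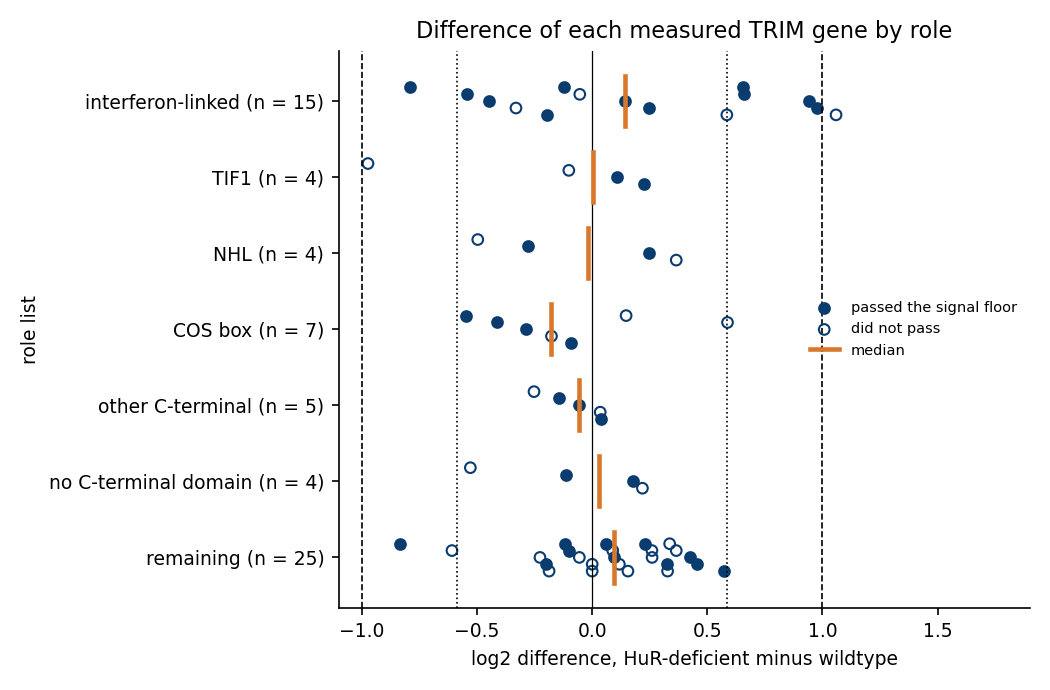
Log2 difference (HuR-deficient minus wildtype) of each of the 64 measured TRIM genes by role list; filled points passed the signal floor, open points did not, and the orange bar is the list's median. Dotted lines mark 1.5-fold and dashed lines 2-fold: the interferon-linked points spread past the dotted lines on both sides, with a median of 0.14, while most other points lie between them.

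TRIM proteins whose genes carry other symbols were set beside the members. Pml, the interferon-induced organiser of nuclear bodies, gave 5.81 in wildtype and 6.53 in cells labelled HuR-deficient, a difference of 0.72. Mid1, a microtubule-binding ligase, gave 6.14 and 5.21, a difference of -0.94. Mefv and Mid2 did not pass the floor. Of the 4 genes, Pml was thus higher and Mid1 lower, each past 1.5-fold and within 2-fold. For genes that passed, the background at 1.5-fold was 5.44% on the higher side and 5.32% on the lower side.

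The genes of proteins with which TRIM proteins work mostly lay within 1.5-fold. Of 28 measured partners and pathway genes, 26 passed the floor and 1 of them reached 1.5-fold, against a background of 10.8% in either direction. This was Uba7, the activating enzyme for the ubiquitin-like protein ISG15, with 6.85 in wildtype and 7.48 in cells labelled HuR-deficient, a difference of 0.63. The RIG-I gene Ddx58 differed by -0.05, Ifih1, which encodes the sensor MDA5, by 0.03, and the kinase gene Tbk1 by -0.07. Other genes of this pathway differed more. Mavs and Ikbke were each higher by 0.56, just short of 1.5-fold, and Ikbkg by 0.42. On the lower side, Rnf135 differed by -0.39 and Tab2, which did not pass the floor, by -0.63. Zc3hav1, the antiviral protein that works with TRIM25, differed by 0.14, and Isg15 by 0.22. Irf3 and Sting1 held the same value on both arrays. Of the co-repressor partners of TRIM28, Setdb1 differed by -0.22, Cbx1 by -0.52, Cbx3 by -0.27, Cbx5 by 0.39 and Chd4 by -0.12. The median of the 28 was 0, with 13 above and 13 below.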

How the data were processed

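The deposited table holds 1 column of log2 signals per array, made by the authors with RMA, per the submitters' processing notes; its version, the annotation and the build were not given in the sources used here. That the scale is log2 follows from their range (0.434 to 13.77). RMA forces both arrays to nearly one distribution, so a change in total mRNA cannot be seen. Of 41345 probe sets, 23521 had 1 symbol in the platform table, 1814 several and 16010 none; only the first were used. For 1082 of 22180 genes with several probe sets, 5 of them TRIM, the one with the highest mean was taken. All 64 TRIM symbols matched RefSeq by Entrez identifier. A gene passed when its higher value reached 4.38. The number of arrays limits the precision, and no p-value was computed.

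The members and lists were chosen with earlier results of these data known. The text names every interferon-linked member, every other member that passed, and both values for the 10 of these with the largest difference. The role lists, partners, other TRIM symbols and cell markers come from general knowledge. Steps were tested on simulated data. The software was Biopython 1.88, matplotlib 3.10.9 and statsmodels 0.14.6 with pandas 2.3.3 and numpy 2.4.6 under Python 3.11.15. Gene order came from a RefSeq table of GRCm38.p6, in which only protein-coding genes and transcribed pseudogenes were counted. Global alignments of promoter windows count gaps in the length. The alternatives were centring, quantile normalisation, loess (span 0.3), averaged probe sets, other filters and thresholds, list means and the list without related copies.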

Additional observations from a re-analysis of the deposited data

Results flagged for a closer look

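One probe set that the platform table gives to several symbols, Trim34a and Trim34b of the stretch described above, was left out of the comparisons and was higher on the array labelled HuR-deficient. Probe set 17481284 had a log2 signal of 5.36 in wildtype and 6.11 in cells labelled HuR-deficient, a difference of 0.75. It was singled out because it is a signal outside the genes compared that exceeded the wildtype array by at least 1.5-fold, which 5.44% of the named genes that passed the floor also did. That rule looked at higher signals only. Another probe set left out, given to Trim80 and Mir3968, passed the floor and was lower, with 4.68 in wildtype and 4.04 in cells labelled HuR-deficient, a difference of -0.65.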

How the results depend on the processing

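With no filter, 1 member was at least 2-fold higher in place of 0, and 10 members were past 1.5-fold in either direction in place of 6. At a threshold of 1.5-fold, 4 members were higher and 2 lower, and at 3-fold there were 0. Among members whose higher value reached the 75th percentile of all named values (5.61), the medians were 0.22 for all TRIM genes, 0.45 for the interferon-linked ones and 0.18 for the others, and the gap between the latter was 0.28 in place of 0.11. Without the related copies that gap was 0.03. Among members that passed the floor, the median of the others was -0.01, and their mean over all measured members was -0.01. The causes were not tested. A further quantile normalisation and removal of the loess trend each put 7 members past 1.5-fold in place of 6, by adding Trim35 and Trim46 respectively. Centring, a further quantile normalisation, removal of the loess trend and averaging of probe sets changed the sign of none of the 39 named differences, and the widest shift was 0.29, for Trim34a when its probe sets were averaged. List values were taken as moved when they shifted by more than 0.1. No paired analysis was possible because each group had 1 array. A weak signal near or below the floor was not shown to lie above background, which bears most on the 29 members that did not pass.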

Other observations

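In all, 7 probe sets carried several symbols that include a TRIM symbol, and Trim5, Trim34b, Trim60, Trim61 and Trim65 had no probe set of their own. Of the 7, 4 passed the floor, with differences from -0.65 to 0.75. A pair with the same symbols, both of the TRIM5-related stretch, gave signals of 11.38 and 11.49 for the first and 4.52 and 4.40 for the second, with differences of 0.10 and -0.11. Where a TRIM gene had 2 probe sets of its own, those of Trim7 differed in sign (0.17 and -0.19) and those of Trim42 did not (0.74 and 0.37), all with signals below the floor.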
